A study of Mus musculus with 27 samples.

Results

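This report describes 10 genes that encode receptors of the netrin, Slit and Dscam guidance systems in the cortex of 5xFAD mice. The genes were chosen by name, as the receptors of these systems, and the deposited table lists them as dcc, neo1, unc5a, unc5b, unc5c, unc5d, robo1, robo2, dscam and dscaml1. All 10 were found among the 26264 gene symbols of the table, and all 10 averaged 1 FPKM or more over the libraries, the limit for testing that 12976 genes met. FPKM are fragments per kilobase of counted transcript, scaled to the fragments of the library, so levels can be compared between genes.

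Guidance receptors sit in the membrane of growing axons and migrating neurons and read extracellular cues. Netrin-1 attracts axons through DCC and repels them through UNC5 receptors, alone or together with DCC. Slit proteins repel axons through ROBO receptors, and DSCAM, a cell adhesion molecule of the immunoglobulin superfamily, can also bind netrin-1. In the adult brain these proteins remain at synapses, where DCC and netrin-1 take part in the plasticity of excitatory contacts.

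Female mice carrying the 5xFAD transgenes, a model of amyloid pathology, on a C57BL6 background were examined at 16 weeks of age. They received 500 nL of solution in the parietal cortex of one hemisphere, and a cortical block around the injection site and its contralateral counterpart were taken 24 h later. The 3 groups were vehicle (4 mice, 8 libraries), R33 (5 mice, 9 libraries) and R55 (5 mice, 10 libraries). R33 and R55 are small molecules that stabilise the retromer, a complex that recycles membrane proteins from endosomes, and both were given at 10 mM in the solvent of the vehicle group, which held DMSO and a cyclodextrin. The vehicle mice carried the same transgenes, so no group was free of amyloid pathology. The hemispheres of a mouse are separate libraries, 13 of the 14 mice gave both, and mice are named here by the letters of their label. The libraries held 15932197 to 38077031 counted fragments, with a median of 27441308.

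The blocks carried the markers of cortex. Excitatory neuron markers (5 of 5 tested) summed to 1555 to 1866 FPKM in vehicle mice, 1405 to 1783 in R33 mice and 1379 to 1945 in R55 mice. Over single libraries they summed to 1185.5 to 2066.5 FPKM. Other lists are given first by library. Astrocyte markers (5 of 5 tested) summed to 253 to 947 FPKM and oligodendrocyte markers (4 of 4 tested) to 429 to 2059. Markers of tissue outside the block were also present. Choroid plexus markers (3 of 3 tested) summed to 2.67 FPKM in the lowest library and 1636 in the highest, and striatal markers (5 of 5 tested) to 47.4 and 339.9. Hippocampal granule neuron markers (3 of 4 tested) summed to 43.5 and 92.5. By mouse, choroid plexus markers had a median sum of 48.8 FPKM in vehicle (7.83 to 566), 205 in R33 (10.1 to 885) and 14.2 in R55 (4.89 to 108). Striatal markers had medians of 71.6, 87.9 and 72.8. All 5 striatal markers had lower means after R55, with a median log2 fold change of -0.19, and after R33 the median was 0.17. After R55, 0 of these 5 were lower at an unadjusted p under 0.05. The 4 red blood cell genes on the list were listed at 0 in all 27 libraries. The data come from whole tissue, so fewer cells of a type and less RNA per cell cannot be told apart.

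One library stood apart for these genes. In the injected hemisphere of the R33 mouse AD, all 10 receptors were below the mean of their group, with a median deviation of -0.66 on the log2 scale. The library was also low in long transcripts: its log2 values changed by -0.23 for each doubling of transcript length, against -0.18 to 0.06 in the other 26 libraries. The main comparisons that use its libraries are therefore given with and without this mouse. Correlations are given only with it.

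The transcripts of the receptors are long. Their counted lengths ran from 3995 bp for Unc5a to 10325 bp for Dcc, with a median of 7524 bp, against 3149 bp for all tested genes. On GRCm39 the genes span from 57.3 kb for Unc5a to 1555.5 kb for Robo2. Dcc lies on chromosome 18 (71386705 to 72484179, minus strand), and Neo1 (58781965 to 58944238, minus strand) and Dscaml1 (45337926 to 45665010, plus strand) lie on chromosome 9. Robo1 (72105194 to 72844378, plus strand), Robo2 (73688727 to 75244270, minus strand) and Dscam (96392040 to 96972145, minus strand) share chromosome 16. The UNC5 genes are dispersed: Unc5a on chromosome 13 (55096518 to 55153833, plus strand), Unc5b on chromosome 10 (60598372 to 60667396, minus strand), Unc5c on chromosome 3 (141170977 to 141540685, plus strand) and Unc5d on chromosome 8 (29136745 to 29709664, minus strand). Exons of other genes cover at most 5.73% of the exonic bases of any of the 10, and on the same strand only those of Robo2, to 1.89%.

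Levels per length differed widely among the receptors. Over the 14 mice the order of mean FPKM was Unc5a (31.1 ± 2.03 SD), Neo1 (14.7 ± 2.01), Robo2 (12.9 ± 2.0), Dscam (10.6 ± 0.98), Dscaml1 (9.33 ± 1.90), Unc5b (6.71 ± 1.45), Unc5d (5.90 ± 1.52), Robo1 (5.30 ± 1.02), Unc5c (3.48 ± 0.73) and Dcc (1.90 ± 0.51). Unc5a was above Neo1 in 14 of 14 mice and Unc5c above Dcc in 14 of 14. Unc5b was above Unc5d in only 9 of 14 mice and Unc5d above Robo1 in 9 of 14, so the order of these neighbours was not separated from the spread between mice. Even Dcc, the lowest, rested on 287 to 1020 fragments per library. Within the vehicle, R33 and R55 groups the coefficient of variation between mice was 1.32%, 9.47% and 4.89% for Unc5a, the steadiest receptor over all mice. It was 16.7%, 23.2% and 12.8% for Dcc and 16.3%, 32.8% and 22.4% for Unc5d.

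**Figure D1:**
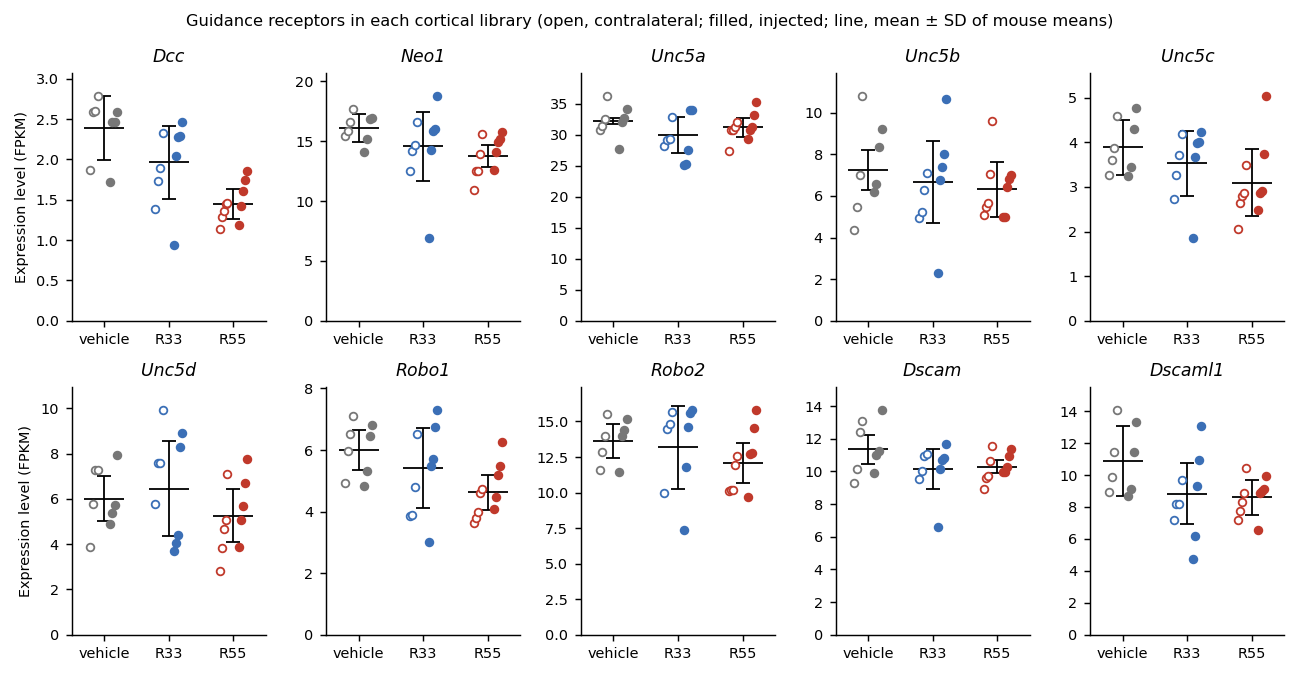
Expression level in FPKM of each guidance receptor in the 27 libraries, by treatment. Open points are contralateral and filled points injected hemispheres, and the black line and bars are the mean ± SD of mouse means. Dcc is the only receptor for which every R55 mouse mean lies below every vehicle mouse mean, and the lowest R33 point in most panels is mouse AD.

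The first comparison asked whether the receptors differed between R55-treated and vehicle-treated mice. All 10 had lower mean values after R55, with log2 fold changes from -0.46 for Dcc to -0.04 for Unc5a and a median of -0.20. Of all tested genes, 39.8% were lower, and their median was 0.03. None of the 10 receptors passed an adjusted p of 0.05 in limma, where 0.00771% of the tested genes (1 gene) did. At an unadjusted p under 0.05, 4 receptors were lower and none higher (Dcc, Robo1, Unc5c and Dscaml1), against 3.74% of tested genes that were lower at that level. With 1 value per mouse this count of 4 was 2 (Dcc and Robo1), and with the correlation within mice modelled it was 3, with Unc5c added. Limma voom on the recovered fragments gave 0 called receptors and the same count of 4 lower at an unadjusted p under 0.05. Transcript length moved with this difference, as described after the single receptors.

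Dcc, the netrin receptor that mediates attraction, showed the largest difference of the 10. In the injected hemisphere its level was 2.46, 2.59, 2.47 and 1.73 FPKM in the vehicle mice J, M, L and AH, and 1.86, 1.61, 1.42, 1.19 and 1.75 in the R55 mice P, AA, Q, R and AB. In the contralateral hemisphere it was 2.61, 2.79, 2.59 and 1.87 in the same vehicle mice and 1.45, 1.46, 1.37, 1.14 and 1.29 in the R55 mice. The vehicle mouse AH was the lowest of its group in both hemispheres, and 8 of 10 R55 libraries were below its lower value. The mouse means were 2.39 ± 0.40 FPKM (SD, n = 4) for vehicle and 1.45 ± 0.19 (SD, n = 5) for R55, so the R55 mean was 60.8% of the vehicle mean. Every R55 mouse was below every vehicle mouse, which held for 1.41% of tested genes and for no other receptor. With the trend on transcript length removed, the mouse values of Dcc overlapped.

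The log2 fold change of Dcc was -0.46 ± 0.09 (SE), with a limma adjusted p of 0.130. By its unadjusted p it ranked 3 of 12976 genes. It was below the threshold in the fit without the R33 libraries (limma adjusted p = 0.0469, with 0.0925% of genes called). The spread is estimated there from the compared groups alone. Of the 14 fits that left out 1 mouse, Dcc was called in 2. These were without mouse AD (limma adjusted p = 0.00677, 50 genes called) and without the vehicle mouse AH (0.0216, 4 genes called). Without AD, an R33 mouse, the difference stayed at -0.46. The limma adjusted p was 0.265 without the R55 mouse Q, 0.454 without the vehicle mouse M and 0.499 without the vehicle mouse L, the highest of the 14. With 1 value per mouse the difference was the same size, -0.46 ± 0.12, but the limma adjusted p was 0.918, and with the correlation within mice modelled it was 0.784. The reported SE takes both libraries of a mouse as independent, and these fits do not.

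Mice carry labels of 1 letter or of 2 letters, and the labels do not say whether these are separate series of animals. Within the 1-letter mice (3 R55, 3 vehicle) the mean log2 level of Dcc differed by -0.58. Within the 2-letter mice (2 R55, 1 vehicle) it differed by -0.15, and the one vehicle mouse there is AH. With the number of letters as a covariate, the difference was -0.44 ± 0.09 (limma adjusted p = 0.0972).

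The relatives and partners of Dcc had smaller mean differences, and receptors were not tested against each other. Neo1 encodes neogenin, a relative of DCC that binds netrins and repulsive guidance molecules. Its mouse means were 16.1 ± 1.15 FPKM (SD, n = 4) in vehicle and 13.8 ± 0.92 (SD, n = 5) in R55, and its log2 fold change of -0.21 ± 0.11 had a limma adjusted p of 0.598. In 4 of 5 R55 mice Neo1 was below the lowest vehicle mouse.

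The UNC5 receptors, which mediate repulsion by netrin-1, had mean differences of unlike size, and they were not tested against each other. Unc5c had the largest difference of the 4 after R55, at 3.09 ± 0.75 FPKM (SD, n = 5) against 3.89 ± 0.62 (SD, n = 4), with a log2 fold change of -0.27 ± 0.12 and a limma adjusted p of 0.558. By hemisphere, Unc5c in the R55 mice P, AA, Q, R and AB was 5.05, 2.92, 3.74, 2.87 and 2.49 FPKM on the injected side and 3.50, 2.64, 2.79, 2.87 and 2.05 on the other. In the vehicle mice J, M, L and AH it was 4.76, 4.29, 3.45 and 3.26 on the injected side and 4.60, 3.87, 3.26 and 3.60 on the other. The highest single Unc5c value of the 27 libraries was thus in an R55 mouse, although 7 of 10 R55 libraries were below every vehicle library. Unc5a, the most abundant member, differed by -0.04 ± 0.06, with mouse means of 31.2 ± 1.52 in R55 and 32.2 ± 0.43 in vehicle. Unc5b (-0.16 ± 0.18) and Unc5d (-0.18 ± 0.17) had differences no larger than about 1 SE, and their 95% intervals ran from -0.52 to 0.21 and from -0.54 to 0.18.

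Of the Slit receptors, Robo1 had a larger mean difference than Robo2, and they were not tested against each other. In the vehicle mice J, M, L and AH, Robo1 was at 6.81, 6.45, 4.82 and 5.33 FPKM in the injected hemisphere and 6.53, 5.98, 7.11 and 4.92 in the contralateral one. In the R55 mice P, AA, Q, R and AB it was at 6.26, 4.47, 5.18, 4.09 and 5.49, and at 4.59, 4.75, 3.80, 3.63 and 3.99. The injected hemispheres overlapped, whereas every contralateral R55 value was below the lowest contralateral vehicle value. Robo1 and Dcc were the 2 receptors with that contralateral separation, as were 1.36% of tested genes, and no receptor had it with the length trend removed. The log2 fold change of Robo1 was -0.32 ± 0.12 with a limma adjusted p of 0.552, and that of Robo2 was -0.17 ± 0.12 with 0.643. Of the 14 fits that left out 1 mouse, Robo1 kept an unadjusted p under 0.05 in 14, Dscaml1 in 10 and Unc5c in 9. In 5 of these fits the mouse was from the R33 group. Its absence cannot change the R55 and vehicle means, so only the other fits vary the compared mice.

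In the Dscam family the mean difference was larger for Dscaml1 than for Dscam, and they were not tested against each other. Dscaml1 was at 10.9 ± 2.19 FPKM (SD, n = 4) in vehicle mice and 8.61 ± 1.11 (SD, n = 5) in R55 mice, with a log2 fold change of -0.30 ± 0.13 and a limma adjusted p of 0.572. The highest vehicle mouse was M, at 13.3 and 14.1 FPKM, and without it the log2 fold change was -0.19 ± 0.14. Within the 1-letter mice Dscaml1 differed by -0.43, and within the 2-letter mice by 0.03, in the other direction. Dscam was at 11.4 ± 0.90 and 10.3 ± 0.39 FPKM and differed by -0.12 ± 0.08, with a limma adjusted p of 0.638.

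**Figure D2:**
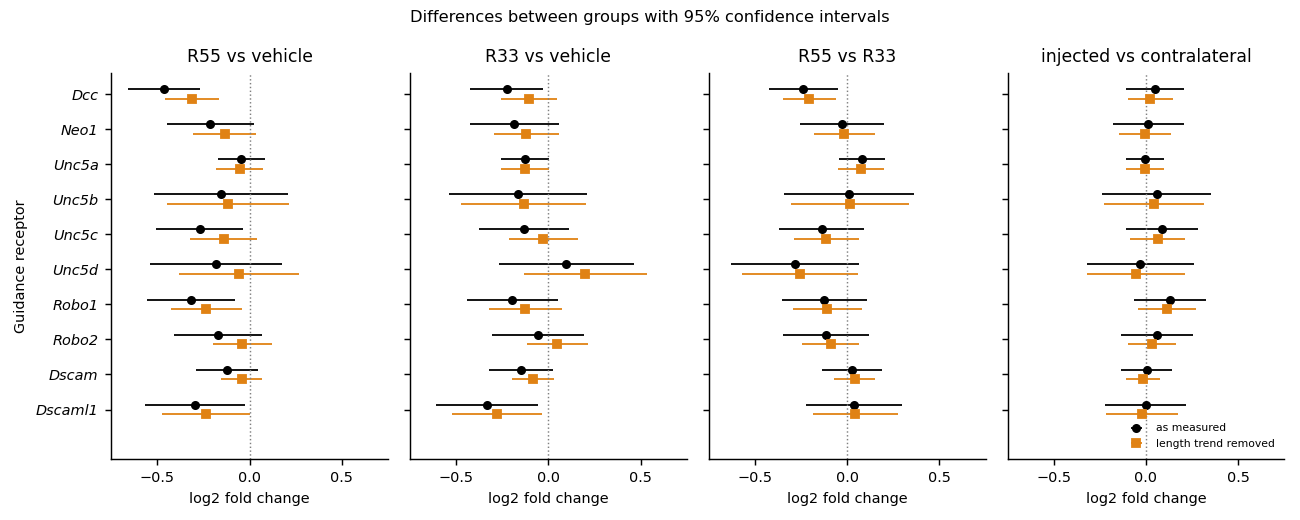
Log2 fold change of each receptor in 4 comparisons with its 95% confidence interval, as measured (black circles) and with the trend on transcript length removed in each library (orange squares). For R55 vs vehicle all 10 points lie left of 0 in both versions, and removal of the trend moves Dcc from -0.46 to -0.31.

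Differences from vehicle followed transcript length across all genes, and the receptors are among the longer transcripts. When the tested genes were divided into 10 bins by counted length, the median log2 fold change for R55 vs vehicle went from 0.10 in the bin of shortest genes to -0.10 in that of the longest, which held 7 of the 10 receptors. For R33 vs vehicle it went from 0.09 to -0.09. Among the 4273 tested genes with lengths in the range of the receptors, 63.1% were lower after R55 and 6.27% were lower at an unadjusted p under 0.05. The slope of log2 values on length was below 0 in 1 of 8 vehicle libraries, 2 of 9 R33 libraries and 6 of 10 R55 libraries. The part of this trend in the receptor differences was not tested beyond its removal.

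With the length trend removed from each library, all 10 receptors still had lower means after R55, with a median of -0.13 against 0.00217 for all tested genes. Of all tested genes, 48.8% were then lower. Dcc differed by -0.31 ± 0.07 (limma adjusted p = 0.292) and Robo1 by -0.24 ± 0.09 (0.734). These were the 2 receptors at an unadjusted p under 0.05, where 3.61% of tested genes were lower. When 1 value per mouse was also used, or the correlation within mice modelled, 1 receptor was at that level. The smallest limma adjusted p of the receptors was then 0.9998. Dscaml1 differed by -0.23 ± 0.12, Unc5c by -0.14 ± 0.09 and Robo2 by -0.04 ± 0.08. No receptor was called.

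**Figure D3:**
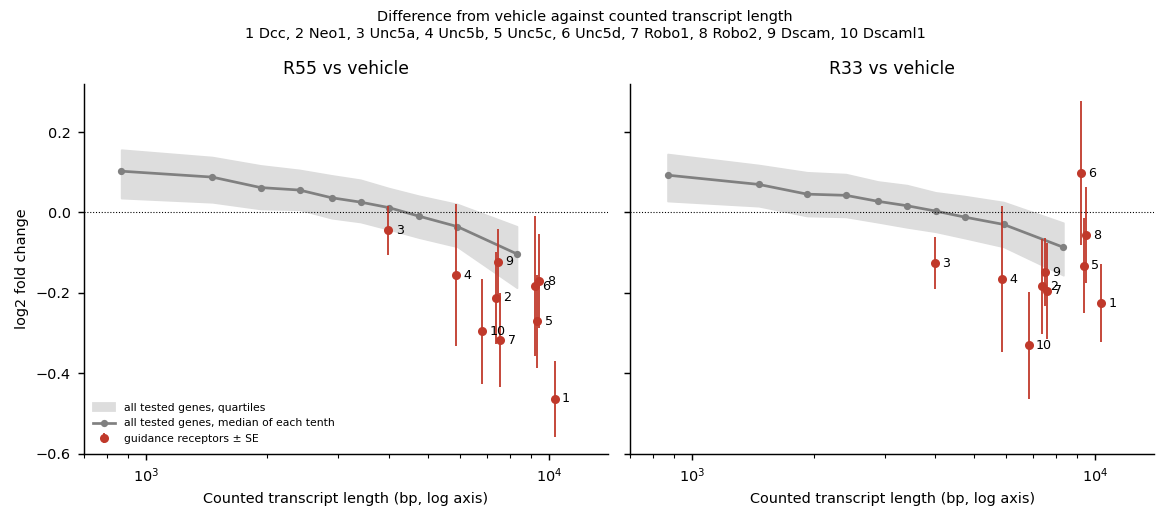
Log2 fold change against counted transcript length in bp on a log axis, for R55 vs vehicle (left) and R33 vs vehicle (right). The grey line and band are the median and quartiles of all tested genes in 10 bins by length, and red points are the numbered receptors ± SE. The grey line falls with length in both panels, and after R55 all 10 receptors lie below 0, with Dcc the longest and lowest.

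The second comparison set R33 against vehicle. Of the 10 receptors 9 had lower means, against 42.5% of all tested genes, with a median log2 fold change of -0.16. Among tested genes with lengths in the range of the receptors, 63.0% were lower and 4.52% were lower at an unadjusted p under 0.05. Limma called none, in either the receptors or all genes (0.0% called, 762 genes at an unadjusted p under 0.05; 0 and 754 by voom). Dcc (-0.23 ± 0.10) and Dscaml1 (-0.33 ± 0.13) were lower at an unadjusted p under 0.05, where 2.68% of tested genes were, and the limma adjusted p of each was 0.834. With 1 value per mouse, or with the correlation within mice modelled, 0 receptors were at that level. With the length trend removed 8 of 10 receptors were lower, against 48.7% of all tested genes, with a median of -0.11. Then 1 receptor was lower at an unadjusted p under 0.05, as 2.47% of tested genes were. As measured, Unc5d was the one receptor with a higher mean, by 0.10 ± 0.18. Dcc was at 2.29, 2.28, 2.47, 2.05 and 0.94 FPKM in the injected hemispheres of the R33 mice K, AE, O, N and AD, and at 1.89, 1.73, 2.33 and 1.38 in the contralateral hemispheres of K, O, N and AD. The values of mouse AD were the lowest on each side, and only 1 of 5 R33 mice, AD, was below the lowest vehicle mouse.

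Without mouse AD the median over the receptors was -0.05, 7 of 10 were lower, and none had an unadjusted p under 0.05. Dcc then differed by -0.11 ± 0.08, Dscaml1 by -0.23 ± 0.13, Neo1 by -0.03 ± 0.07 and Unc5c by -0.01 ± 0.10, while Unc5b (0.02 ± 0.15), Robo2 (0.10 ± 0.09) and Unc5d (0.21 ± 0.18) had higher means.

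R55 and R33 were given at the same dose and taken at the same time, so they were compared directly, as 1 pair over the 10 receptors with adjustment over all tested genes. None of the receptors was called, nor any other gene (0.0%, 149 genes at an unadjusted p under 0.05, and 0 and 161 by voom). Dcc was lower after R55 by -0.24 ± 0.09, with a 95% interval of -0.43 to -0.05. It was the only receptor at an unadjusted p under 0.05, as 0.416% of tested genes were lower at that level, and its limma adjusted p was 0.9998. For the other 9 receptors the interval included 0: it was -0.35 to 0.11 for Robo1, -0.37 to 0.09 for Unc5c, -0.63 to 0.07 for Unc5d and -0.04 to 0.20 for Unc5a. The intervals for Neo1 (-0.26 to 0.20), Unc5b (-0.34 to 0.36), Robo2 (-0.35 to 0.12), Dscam (-0.14 to 0.19) and Dscaml1 (-0.23 to 0.30) also included 0, and none of them shows that the compounds act alike.

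Without mouse AD the direct comparison widened. The median over the receptors went from -0.07 to -0.21, 9 of 10 were lower after R55, against 44.02% of all tested genes, and 6 were lower at an unadjusted p under 0.05, against 3.96% of all tested genes. Over all genes, 1338 had an unadjusted p under 0.05 without this mouse and 149 with it. The 2 R33 libraries with a slope on transcript length below 0 are both of mouse AD, whereas 6 of 10 R55 libraries had such a slope. With all mice, removal of the length trend moved the median from -0.07 to -0.05. No fit without mouse AD had the trend removed, so the part of transcript length in these differences was not tested. Dcc then differed by -0.36 ± 0.07 (limma adjusted p = 0.115), Robo2 by -0.27 ± 0.09 (0.409) and Unc5c by -0.26 ± 0.10 (0.436). Both compounds share the vehicle mice as controls, so the R55 and R33 differences from vehicle are not independent of each other.

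Between injected and contralateral hemispheres, no receptor passed the test. The log2 differences ran from -0.03 for Unc5d to 0.13 for Robo1, with a median of 0.03. Without mouse AD all 10 were above 0, with a median of 0.07, and none had an unadjusted p under 0.05. Of all tested genes, 50.70% were then below 0. With all mice none had an unadjusted p under 0.05, which 3.47% of tested genes had, and no gene was called by limma (0.0%, 450 genes at an unadjusted p under 0.05, and 0 and 486 by voom). Unc5c was higher in the injected hemisphere in 11 of 13 mice, by 0.08 ± 0.05 with the mouse as a replicate block (limma adjusted p = 0.875). Robo1 was higher in 9 of 13 mice, by 0.11 ± 0.08 in that fit (0.900). In the R55 mice alone, with the same block, 9 of 10 receptors were higher in the injected hemisphere, with a median of 0.13. Of all tested genes, 54.63% were lower there. The length trend was not removed in the fits of 1 treatment alone. Robo1 (0.24 ± 0.09), Unc5c (0.21 ± 0.08) and Robo2 were at an unadjusted p under 0.05, where 2.88% of tested genes were higher, and none was called (limma adjusted p = 0.613). In the vehicle mice alone 4 of 10 receptors were higher and in the R33 mice alone 3 of 10, where 42.32% and 44.83% of all tested genes were lower.

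**Figure D4:**
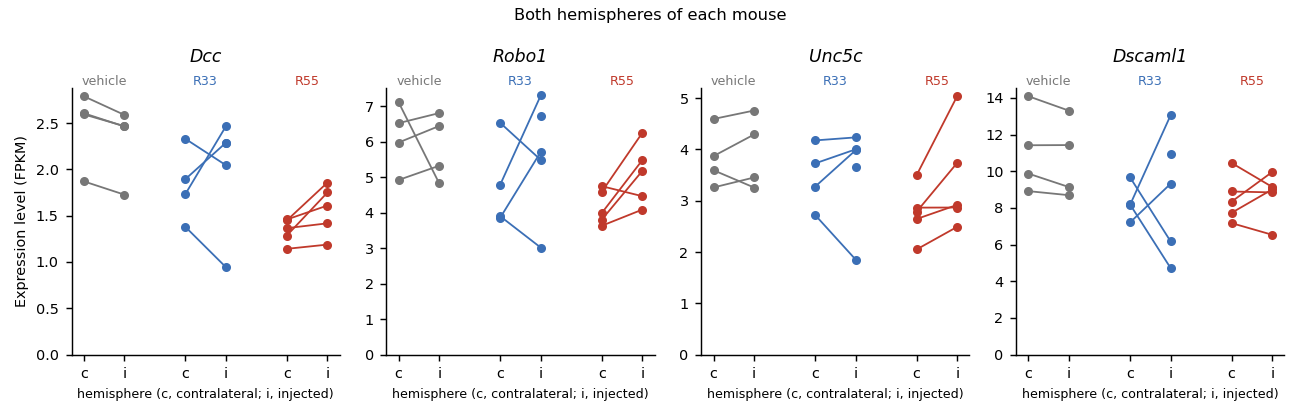
Expression level in FPKM in the contralateral (c) and injected (i) hemisphere of each mouse, joined by a line, for Dcc, Robo1, Unc5c and Dscaml1. For Dcc the 4 vehicle lines go down and the 5 R55 lines go up from the contralateral to the injected hemisphere. Mouse AE is a single R33 point on the injected side.

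For Dcc the injected hemisphere was the lower one in 4 of 4 vehicle mice and the higher one in 5 of 5 R55 mice. Of all tested genes 0.324% showed this split, and no other receptor did. With the length trend removed it was 2 of 4 and 4 of 5 mice.

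Whether the R55 difference depended on the hemisphere was tested as an interaction, which was not called for any receptor (0.0% of tested genes for R55 and 0.0% for R33; 239 and 49 genes at an unadjusted p under 0.05). In the contralateral hemisphere alone Dcc differed by -0.56 ± 0.11, Robo1 by -0.47 ± 0.13 and Unc5c by -0.36 ± 0.12, and in the injected hemisphere alone by -0.37 ± 0.16, -0.17 ± 0.18 and -0.18 ± 0.19. The interaction terms were 0.19 ± 0.19, 0.30 ± 0.23 and 0.18 ± 0.24 for these genes. For Dcc the term was 0.03 ± 0.15 with the length trend removed, and the median of the R55 interaction over the receptors went from 0.19 to 0.04. The median of the R33 interaction over the receptors was -0.02, and 0.12 without mouse AD. In the contralateral R55 library of mouse Q the slope on transcript length was -0.18, the second lowest of the 27.

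Other genes of the pathways were taken from lists. Their SE and p-values are from the fit that takes both libraries of a mouse as independent, and no fit by mouse is given for them. Of the 15 ligands, 14 were tested. Draxin, a secreted netrin antagonist, was below the level tested, at 0.13 FPKM. None of the 14 was called in the R55 comparison, 9 were lower, and 5 were lower at an unadjusted p under 0.05. Of all tested genes, 39.8% were lower and 3.74% lower at that level, and with the length trend removed 3 of the ligands were (Slit1, Slit3 and Ntn3). All 3 Slit genes, which encode the ligands of the ROBO receptors, were among the 5 as measured: Slit1 at -0.66 ± 0.27, Slit2 at -0.28 ± 0.13 and Slit3 at -0.39 ± 0.14. Slit1 averaged 14.99 FPKM in vehicle mice and 8.83 in R55 mice, and single mice ranged from 4.68 to 22.6. Slit3 was also lower after R33, by -0.42 ± 0.15, and stayed at -0.37 after R55 when the length trend was removed. Slit2 was then at -0.14.

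The netrins differed in direction. Ntn1, the main ligand of DCC, was at 2.30 FPKM in vehicle mice, 2.21 in R33 mice and 2.27 in R55 mice, a log2 difference of -0.02 ± 0.07 after R55. Ntn3 was lower by -0.14 ± 0.05, with an unadjusted p under 0.05 and a limma adjusted p of 0.552. Ntn4 (0.10 ± 0.11) and Ntn5 (0.35 ± 0.17) had higher means. The membrane-bound netrin-G genes Ntng1 (-0.13 ± 0.22) and Ntng2 (-0.16 ± 0.11) do not bind DCC. Of the repulsive guidance molecules, which bind neogenin, Rgmb was lower by -0.11 ± 0.05, the fifth ligand at an unadjusted p under 0.05, and Rgma was at 0.10 ± 0.09. Flrt1 (0.01 ± 0.11), Flrt2 (-0.16 ± 0.12) and Flrt3 (0.01 ± 0.11) encode ligands of UNC5 receptors, and none had an unadjusted p under 0.05.

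Among 8 further receptors and co-receptors, 7 were tested and none was called after R55, with 5 lower where 39.8% of all tested genes were. Igdcc3 was below the level tested, at 0.48 FPKM. Lrig2, which protects neogenin from shedding, was lower by -0.18 ± 0.07 at an unadjusted p under 0.05 (limma adjusted p = 0.557). Robo3 (0.19 ± 0.18), the endothelial Robo4 (-0.09 ± 0.19), Mcam (-0.11 ± 0.17), Igdcc4 (0.09 ± 0.11) and the proteoglycan genes Gpc1 (-0.12 ± 0.08) and Sdc3 (-0.01 ± 0.10) had an unadjusted p over that. Of 32 effectors, 31 were tested, 19 were lower and 12 higher, the median was -0.02 against 0.03 for all tested genes, and none was called. The 3 with the smallest p were lower: Abl2, a tyrosine kinase, by -0.25 ± 0.08, Trio, a guanine nucleotide exchange factor, by -0.20 ± 0.07, and Dapk1, a kinase that acts with UNC5 receptors, by -0.18 ± 0.08. With the length trend removed they differed by -0.09, -0.03 and -0.14.

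The receptors mostly varied in the same direction between mice. After subtraction of the treatment means, 40 of the 45 pairs of receptors had a Pearson correlation above 0 over the 14 mice, with a median of 0.56. The highest was that of Dcc with Robo1, at 0.90, and the lowest that of Unc5d with Dscaml1, at -0.42. With the length trend removed the median was 0.21, Dcc and Robo1 were at 0.78, and Unc5d and Dscaml1 at -0.71. The points share libraries and their composition, and the values are a description. Mouse AD is among the 14 mice, and no values without it or for other pairs of genes are given.

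Genes most like each receptor were taken as the 2 with the highest Pearson correlation over the 27 libraries, those of mouse AD included, after subtraction of group means. For Dcc, Lsamp was among them (0.89), and for Neo1 they were Adgrl3 (0.95) and Dag1 (0.94), for Robo1 Peak1 (0.91) and Nexmif (0.90), and for Robo2 Atp8a1 (0.92) and Cacna2d1 (0.92). Dscam went with Selenoi (0.93) and Cand1 (0.92), and Dscaml1 with Cacna1h (0.92) and Sipa1l3 (0.92). For Unc5a they were Proz (0.75) and Sypl2 (0.63), the weakest pair, for Unc5c Pcdhb14 (0.90) and Zfp738 (0.90), and for Unc5d Negr1 (0.93) and Pde7b (0.90). Unc5b was most like Gpr37 (0.96) and Adamts4 (0.96).

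Unc5d and Dscaml1 went in opposite directions with markers of cortical layers over the 27 libraries. Unc5d had a Pearson correlation of 0.68 with the summed upper and middle layer markers Cux1, Cux2 and Rorb. Dscaml1 was at -0.65 with the same layer markers. These markers summed to 21.1 to 61.3 FPKM over the libraries. By mouse they summed to 23.6 to 35.3 in vehicle, 26.4 to 37.8 in R33 and 24.2 to 53.4 in R55. After R55, 0 of the 3 were lower and 3 of 4 deep layer markers were, with median log2 fold changes of 0.24 and -0.15. After R33 the medians were 0.29 and -0.14. Dcc had correlations of -0.47 with the upper and middle layer markers and 0.46 with the deep layer markers, and Robo1 of -0.45 and 0.41. Deep layer markers (4 of 4 tested) summed to 39.2 to 48.2 FPKM in vehicle mice, 34.8 to 41.0 in R33 mice and 23.7 to 47.0 in R55 mice. Endothelial markers (4 of 4 tested) summed to 29.4 to 58.5, 21.0 to 58.4 and 23.1 to 74.1, and microglial markers (4 of 4 tested) to 113 to 158, 104 to 169 and 99.2 to 186. No marker gene of the lists given here was called in the R55 comparison. At an unadjusted p under 0.05, 1 of 4 deep layer markers (Bcl11b) was lower. Higher at that level were 2 of 6 interneuron markers (Pvalb and Vip), 1 of 5 astrocyte markers (Aldh1l1) and 1 of 5 mural and fibroblast markers (Col1a2). The other tested markers were not at that level. Of the 12976 tested genes, 485 were lower and 611 higher at that level. The part of tissue composition in the receptor differences was not tested.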

How the data were processed

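Stranded mRNA libraries were sequenced from paired ends by the authors, who aligned the reads to GRCm39 with HISAT2. The counting tool and its annotation are not given in the sources used here. The authors deposited FPKM in one table, and 100.0% of values were whole fragments within 0.01, so fragments and counted lengths were recovered. Of 32 libraries, 27 were used and 5 were not used here.

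Models of log2(FPKM + 1) were run in limma 3.58.1 under R 4.3.3, with treatment and hemisphere as additive factors, an intensity trend and Benjamini-Hochberg adjustment over the 12976 genes that averaged 1 FPKM or more. Tests are two-sided and calls are at an adjusted p under 0.05. Fold changes on this scale understate those of low genes such as Dcc. The authors used DESeq2, which needs counts and was not used here. Hemispheres were paired by mouse: over 13 pairs, deviations from group means correlated at 0.394 on average (-0.0787 to 0.648). Length trends were removed per library by lowess (span 0.3). Gene positions are from GENCODE vM39. Replicates are mice, but the main fit has no term for the mouse. Its SE and p-values measure the spread between libraries and take both libraries of a mouse as independent. The fits with 1 value per mouse, the correlation within mice modelled or the mouse as a replicate block do not. The fit was tested on simulated counts drawn independently for each library, with no effect of the mouse or of transcript length. That test therefore cannot judge how the fit handles both libraries of a mouse or the length trend. Alternatives covered the pseudocount, the filter, scaling, voom, pairing, the label series, subsets of libraries and mice left out. Fits of R33 or R55 mice alone, interaction fits with length trends removed, or with mice left out, and fits that combine the length trend with other choices were added after seeing the data.

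The receptors and lists were chosen with earlier results of these data known. The text names every receptor, ligand and further receptor, the 3 effectors with the smallest p in R55 vs vehicle, and the 2 genes most like each receptor. Some results that this rule or the marker lists would give are not reported here. Figures were drawn with Python 3.11.15 and matplotlib 3.10.9.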

Additional observations from a re-analysis of the deposited data

Results flagged for a closer look

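Within a treatment and hemisphere, a library was taken as far from the others when its gap to the nearest, divided by the range of the group, passed Dixon's 95% critical value. Of 60 groups of values tested, 7 did, where chance gives about 1 in 20. Of these, 4 were the injected R33 library of mouse AD, at the low end: Dcc at 0.944 FPKM, Neo1 at 6.90, Unc5c at 1.85 and Dscam at 6.58. Another 2 were libraries of the R55 mouse R at the low end, Unc5a at 27.3 FPKM in the contralateral and Dscaml1 at 6.53 in the injected hemisphere. The last was Dcc at 1.73 FPKM in the injected hemisphere of the vehicle mouse AH.

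For Dcc, the injected hemisphere was above the contralateral one in 5 of 5 R55 mice and below it in 4 of 4 vehicle mice. Of all tested genes 0.324% showed this split, and with the length trend removed Dcc did not (4 of 5 and 2 of 4 mice). The difference between the groups was 0.19 on the log2 scale. As an interaction it had a limma adjusted p of 0.999, and 0.806 with the mouse as a replicate block.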

How the results depend on the processing

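The median log2 fold change of the receptors ran over all alternatives from -0.32 to -0.11 for R55 vs vehicle, from -0.21 to -0.05 for R33 vs vehicle, from -0.21 (without AD) to 0.04 (injected hemisphere alone) for R55 vs R33, from -0.08 to 0.13 for injected vs contralateral, from 0.04 to 0.22 for the R55 interaction and from -0.10 to 0.12 for the R33 interaction. The R55 vs R33, hemisphere and R33 interaction medians thus changed sign between alternatives. For R55 vs vehicle, 1 receptor (Dcc) was called with only the compared treatments, where 12 genes were called, and 0 to 1 receptors were called when 1 mouse was left out (1 without AD or AH). All genes called for R55 vs vehicle numbered 0 with 1 value per mouse, in either hemisphere alone, with the correlation within mice modelled, with the label series as a covariate, with the length trend removed alone or in these combinations, with median-of-ratios size factors and with no filter, and 0 to 50 with 1 mouse left out. The 50 are without AD, and without AH and J they were 4 and 3. For R33 vs vehicle 1 gene was called with no filter. For R55 vs R33 it was 0 to 2 with 1 mouse left out, 2 without AD. For injected vs contralateral it was 1 with the correlation within mice modelled and 5 when the length trend was also removed, and with the mouse as a replicate block 0. That paired fit gave the receptors a median of 0.02, and called none. No paired analysis was possible between treatments, since each mouse had 1 treatment.

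In the comparisons of treatments, single receptors changed direction as follows, none of them called. For R55 vs vehicle, Unc5a was at 0.013 in the injected hemisphere alone (0.0033 with the length trend removed), and with that trend removed Unc5d was at 0.011 there, and Unc5b at 0.040 and Dscam at 5.94e-05 in the contralateral hemisphere alone. For R33 vs vehicle, Unc5d was at -0.080 in the injected hemisphere alone. Robo2 was at 0.049 with the length trend removed. With that trend removed it was at 0.041 when the correlation within mice was also modelled and at 0.034 with 1 value per mouse. In the contralateral hemisphere alone Robo2 was at 0.013 (0.115 with the trend removed). For R55 vs R33 in the injected hemisphere alone, Neo1 was at 0.074 (0.028 with the trend removed), Unc5b at -0.089 (-0.126), Unc5d at 0.036, Robo2 at 0.035 and Dscaml1, with the trend removed, at -0.00023. Dscam was at -0.041 in the contralateral hemisphere alone. With the correlation within mice modelled Unc5b was at -0.0011, and with 1 value per mouse it was at -0.026 (-0.022 with the trend removed) and Dscaml1 at -0.00015.

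With 1 mouse left out, R33 vs vehicle ran from -0.29 to 0.017 for Unc5b, from -0.033 to 0.21 for Unc5d and from -0.12 to 0.097 for Robo2. R55 vs R33 ran from -0.18 to 0.037 for Neo1, from -0.17 to 0.14 for Unc5b, from -0.059 to 0.058 for Dscam and from -0.064 to 0.11 for Dscaml1. For injected vs contralateral, 7 of 10 receptors were higher, 5 of 10 with the length trend removed, when Dscam was at -0.016 and Neo1 at -0.0063. In vehicle mice alone Dcc was at -0.066 and Robo1 at -0.059. The causes were not tested. Dcc, the lowest receptor, had at least 287 fragments in each library, and groups held 4 or 5 mice.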
